A study of Mus musculus with 4 samples.

Results

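Iron and heme handling is described here through 9 genes of the mouse: Hmox1, Fth1, Ftl1, Slc40a1, Slc11a1, Tfrc, Spic, Hp and Blvrb. They were taken by symbol from the 32285 genes counted, and all 9 were found and counted in every sample. The cells were colonic lamina propria leukocytes from mice with colitis caused by dextran sulfate sodium (DSS), a polymer that injures the colonic epithelium. As the study describes the experiment, mice drank 2% DSS for 7 days, tissue was taken on day 8, red blood cells were lysed, cells positive for the leukocyte protein CD45 were collected on magnetic beads and 3 mice were mixed into each of the 4 samples. The series covers wild type mice and mice lacking the aryl hydrocarbon receptor (AhR), but the labels give the same treatment, tissue and age (10 weeks, against 8 weeks in the study's description) for all 4 samples and no genotype for any. The samples were therefore kept apart as samples 1 to 4, and genotypes were not compared. Levels and ratios are given for each sample. Only median log2 ratios of sets of genes, the median share of cells with a UMI and correlations were taken over the samples. The correlations pooled the class points of all 4 samples, so they mix differences between classes with differences between samples. The check of class markers summed the samples. Levels are unique molecular identifiers (UMIs, a tag for each captured transcript) per 1000000 UMIs (written CPM), summed over the cells of a class within a sample, and intervals are exact 95% Poisson or binomial intervals that cover counting error only. CPM is not corrected for transcript length, so levels are compared between cell classes and samples, not between genes. It is a share of the UMIs of a class and does not give transcripts per cell.

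Macrophages recover iron from senescent or damaged red cells. Free hemoglobin is bound by haptoglobin (Hp) and taken up through the scavenger receptor Cd163. Heme is opened by heme oxygenase 1 (Hmox1) into iron, carbon monoxide and biliverdin. The biliverdin reductase Blvra turns this biliverdin into bilirubin, while Blvrb reduces flavins and other forms of biliverdin. The iron is stored in ferritin, a shell of heavy (Fth1) and light (Ftl1) chains, or leaves the cell through ferroportin (Slc40a1). Slc11a1 (also called Nramp1) pumps iron and manganese out of the phagosome, Tfrc is the receptor that brings transferrin-bound iron into the cell, and Spic is a transcription factor required for the red pulp macrophages of the spleen that recycle heme.

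Several of these transcripts carry iron-responsive elements, short hairpins in the untranslated regions (UTRs) to which the iron regulatory proteins bind when iron is scarce. Binding in a 5′ UTR blocks translation, and binding in a 3′ UTR protects the transcript from decay. These elements are shown because they are a layer of control that a transcript count does not read for Fth1, Ftl1 and Slc40a1. The search used the GENCODE M21 transcripts on GRCm38, with a single protein-coding transcript for each gene. It looked on the transcript strand for C, any 5 bases, CAGTGN with N other than G, and 5 bases that all pair with the first 5 (G with T allowed). It found the pattern in the 5′ UTR of 16 of 20096 genes (0.0796%), of which 3 were Fth1, Ftl1 and Slc40a1. It found it in the 3′ UTR of 88 of 20692 genes (0.425%), with 4 copies in Tfrc. In the transcript searched, the other 5 genes and the 52 further genes of the pathway held none under these rules. Their other transcripts were not searched, so elements found only in those would be missed. Elements with a mismatch or a bulge in the 5 pairs would be missed too, in these genes and in Tfrc. The loop is in capitals.
Fth1, 5′ UTR, chr19:9982733-9982759, plus strand: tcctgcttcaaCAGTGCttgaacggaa
Ftl1, 5′ UTR, chr7:45459780-45459806, minus strand: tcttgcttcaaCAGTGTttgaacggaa
Slc40a1, 5′ UTR, chr1:45925466-45925492, minus strand: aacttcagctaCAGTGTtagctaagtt
Tfrc, 3′ UTR, chr16:32631220-32631246, plus strand: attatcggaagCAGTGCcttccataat
Tfrc, 3′ UTR, chr16:32631599-32631625, plus strand: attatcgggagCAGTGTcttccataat
Tfrc, 3′ UTR, chr16:32631664-32631690, plus strand: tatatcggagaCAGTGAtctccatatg
Tfrc, 3′ UTR, chr16:32631711-32631737, plus strand: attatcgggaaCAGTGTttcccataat

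Samples 1 to 4 held 11425, 13730, 11581 and 8493 deposited cells, of which 10020, 11824, 10167 and 7539 were kept, with a median of 5633 to 7084 UMIs per kept cell. Cells were placed in classes by how many markers of a fixed list they carried, and a class name below means the cells that passed that gate. Cells of the monocyte and macrophage lineage that carried both marker lists, or neither, were kept as classes of their own, called cells of both lists and undecided lineage cells. Of the 39550 kept cells, 27224 fell in 1 of 14 classes, 6795 passed the gates of more than 1 lineage and were set aside as mixed, and 5531 passed none. Mixed cells were 13.2%, 24.1%, 14.5% and 15.1% of kept cells in samples 1 to 4. They held 29.6%, 51.9%, 32.5% and 35.4% of all UMIs of kept cells, which the class levels leave out. Their median depth was 14361 to 17175 UMIs, against 1893 to 2465 in cells that passed no gate. The part of depth in the gates was not tested. The 10 genes most enriched in each of 11 classes checked held 1 to 6 of that class's own markers and no marker of another list, except 1 (Mmp13, of a macrophage subset) in macrophages. The gates use these same markers, so this outcome follows largely from the gating and does not test the class names. A class was read in a sample only with at least 50 cells, which left 10 classes read in all 4 samples. Pairs of libraries shared 23 to 49 cell barcodes. Erythroid transcripts, which would come from red cells left after lysis, were few: the 7 erythroid markers together reached at most 2.68 CPM in neutrophils, monocytes or macrophages of any sample, and 81.9 CPM in the cells of sample 3 that passed no gate.

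Transcripts released from broken cells give droplets a low count of genes that the cell does not express. C1qa, a macrophage gene, stood in T cells at 0.324% to 0.554% of its macrophage level, and the neutrophil gene Csf3r at 0.427% to 1.02% of its neutrophil level. Hp stood in T cells at 0.532% to 1.77% of its neutrophil level and Slc40a1 at 0 to 0.791%, and Spic at 1.02% to 2.94% of its macrophage level. Fth1 stood higher, at 5.70% to 7.73% of its neutrophil level, and Ftl1 at 8.81% to 13.4% of its macrophage level. In B cells, C1qa stood at 0.362% to 0.683% and Csf3r at 1.04% to 1.41% of those levels, Hp at 0.496% to 1.18%, Slc40a1 at 0.525% to 2.39%, Slc11a1 at 1.15% to 2.87%, Hmox1 at 1.65% to 2.95% and Spic at 0.539% to 5.34%. The part of free RNA in the lymphocyte values of these genes was not tested.

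**Figure D1:**
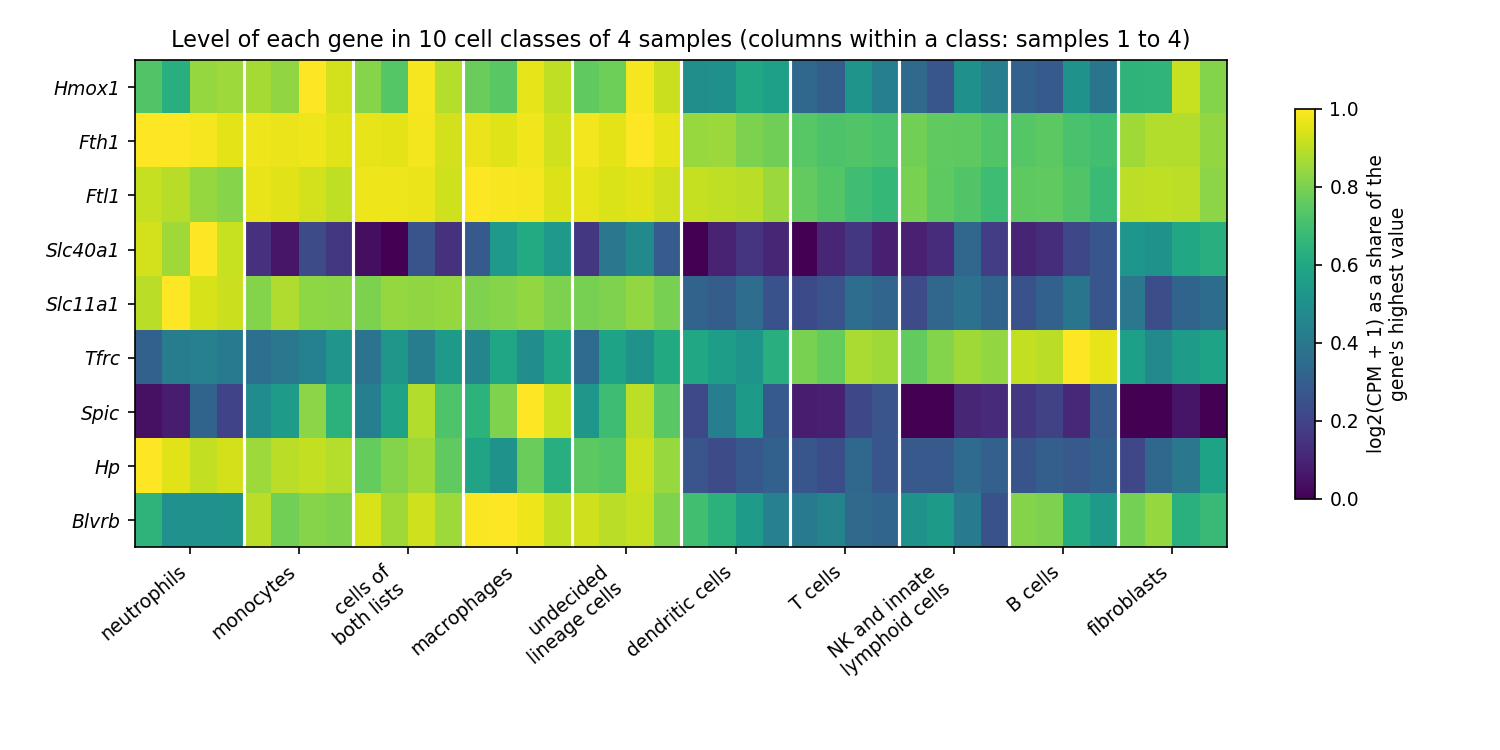
Level of the 9 genes in the 10 cell classes read in all 4 samples. Rows are genes, columns are samples 1 to 4 within each class, and color is log2(CPM + 1) divided by the highest value of that gene, so rows cannot be compared with each other in level. Hmox1, Fth1, Ftl1, Slc11a1 and Hp were highest in myeloid classes, Slc40a1 in neutrophils and Tfrc in B cells, T cells and NK cells.

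Hp (chr8:109575128-109579172, minus strand; all positions are GRCm38) was higher in neutrophils and monocytes than in macrophages in all 4 samples. In neutrophils (1288, 589, 2056 and 1312 cells in samples 1 to 4) Hp was at 1001, 726, 525 and 634 CPM, and in monocytes at 368, 490, 530.5 and 463 CPM. In macrophages it was at 56.0, 32.5, 205 and 76.0 CPM, and dendritic cells, T cells, B cells and NK cells lay between 3.94 and 10.3 CPM. The neutrophil level exceeded the monocyte level in 3 of 4 samples. In sample 3 the 2 classes did not differ beyond counting error, with 1.01 times as much in monocytes (95% interval 0.972 to 1.05). The monocyte level exceeded the macrophage level by 2.59 to 15.1 times in the 4 samples. Within neutrophils, cells with at least 3 of 7 granule transcripts, a feature of younger neutrophils, held more Hp in every sample than those with fewer (1076, 862, 552 and 656 CPM against 743, 608, 473 and 492 CPM). This split was chosen after the data were seen, and it also parted cells by depth. The median was 7000, 4120, 4583 and 5939 UMIs in the former and 4212, 2752, 2962 and 3199 in the latter. The part of depth was not tested.

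Hmox1 (chr8:75093621-75100589, plus strand), the enzyme that opens heme, was highest in monocytes in all 4 samples. It reached 503, 410, 1344 and 820 CPM in monocytes of samples 1 to 4. Macrophages held 255, 212, 1033 and 676 CPM, and neutrophils 189, 91.3, 425 and 463 CPM. Monocytes exceeded macrophages by 1.97 times in sample 1 (95% interval 1.86 to 2.10) and by 1.94 (1.78 to 2.10), 1.30 (1.27 to 1.34) and 1.21 (1.16 to 1.27) times in samples 2 to 4. The direction was therefore the same in every sample, and the size was under 2-fold in each. Fibroblasts, which CD45 selection should remove, also held Hmox1, at 109, 110, 740 and 353 CPM in 67, 80, 330 and 150 cells. Hmox1 in T cells, at 10.2, 7.95, 40.8 and 21.1 CPM, was 1.94% to 3.03% of the monocyte level of the same sample.

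Blvrb (chr7:27447978-27466144, plus strand), which reduces flavins and forms of biliverdin other than the main product of Hmox1, was highest in macrophages in all 4 samples. Macrophages held 133.5, 138.5, 122 and 88.5 CPM in samples 1 to 4. Monocytes held 82.3, 47.5, 56.0 and 53.1 CPM, and neutrophils 23.9, 11.1, 11.1 and 11.6 CPM. The ranges of these 3 classes did not overlap. Outside the myeloid cells, B cells held 55.1, 51.5, 19.8 and 13.1 CPM, where T cells of the same samples held 3.98 to 8.10 CPM. Cells with a germinal-center profile among the B cells were numerous enough only in sample 2, where Blvrb was at 179 CPM (95% interval 151 to 210) in 61 cells. Fibroblasts lay between 22.0 and 63.3 CPM.

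Spic (chr10:88674772-88685015, minus strand) was also highest in macrophages in all 4 samples. Its level there was 23.25, 52.4, 136 and 90.4 CPM in samples 1 to 4, a 5.86-fold range. Monocytes held 9.93, 13.8, 56.9 and 22.6 CPM, less than macrophages in every sample, with the same sample lowest and the same sample highest. Macrophages held 27.6%, 53.8%, 34.9% and 47.2% of all Spic UMIs of the kept cells while holding 5.22% to 9.58% of all UMIs. Monocytes held 27.1%, 6.75%, 22.1% and 8.48% of Spic UMIs, with 2.48% to 13.3% of all UMIs. Mixed cells held 16.7% to 23.8% of Spic UMIs, with 29.6% to 51.9% of all UMIs. Neutrophils had 2, 1, 35 and 13 Spic UMIs, or 0.237 to 3.88 CPM.

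**Figure D2:**
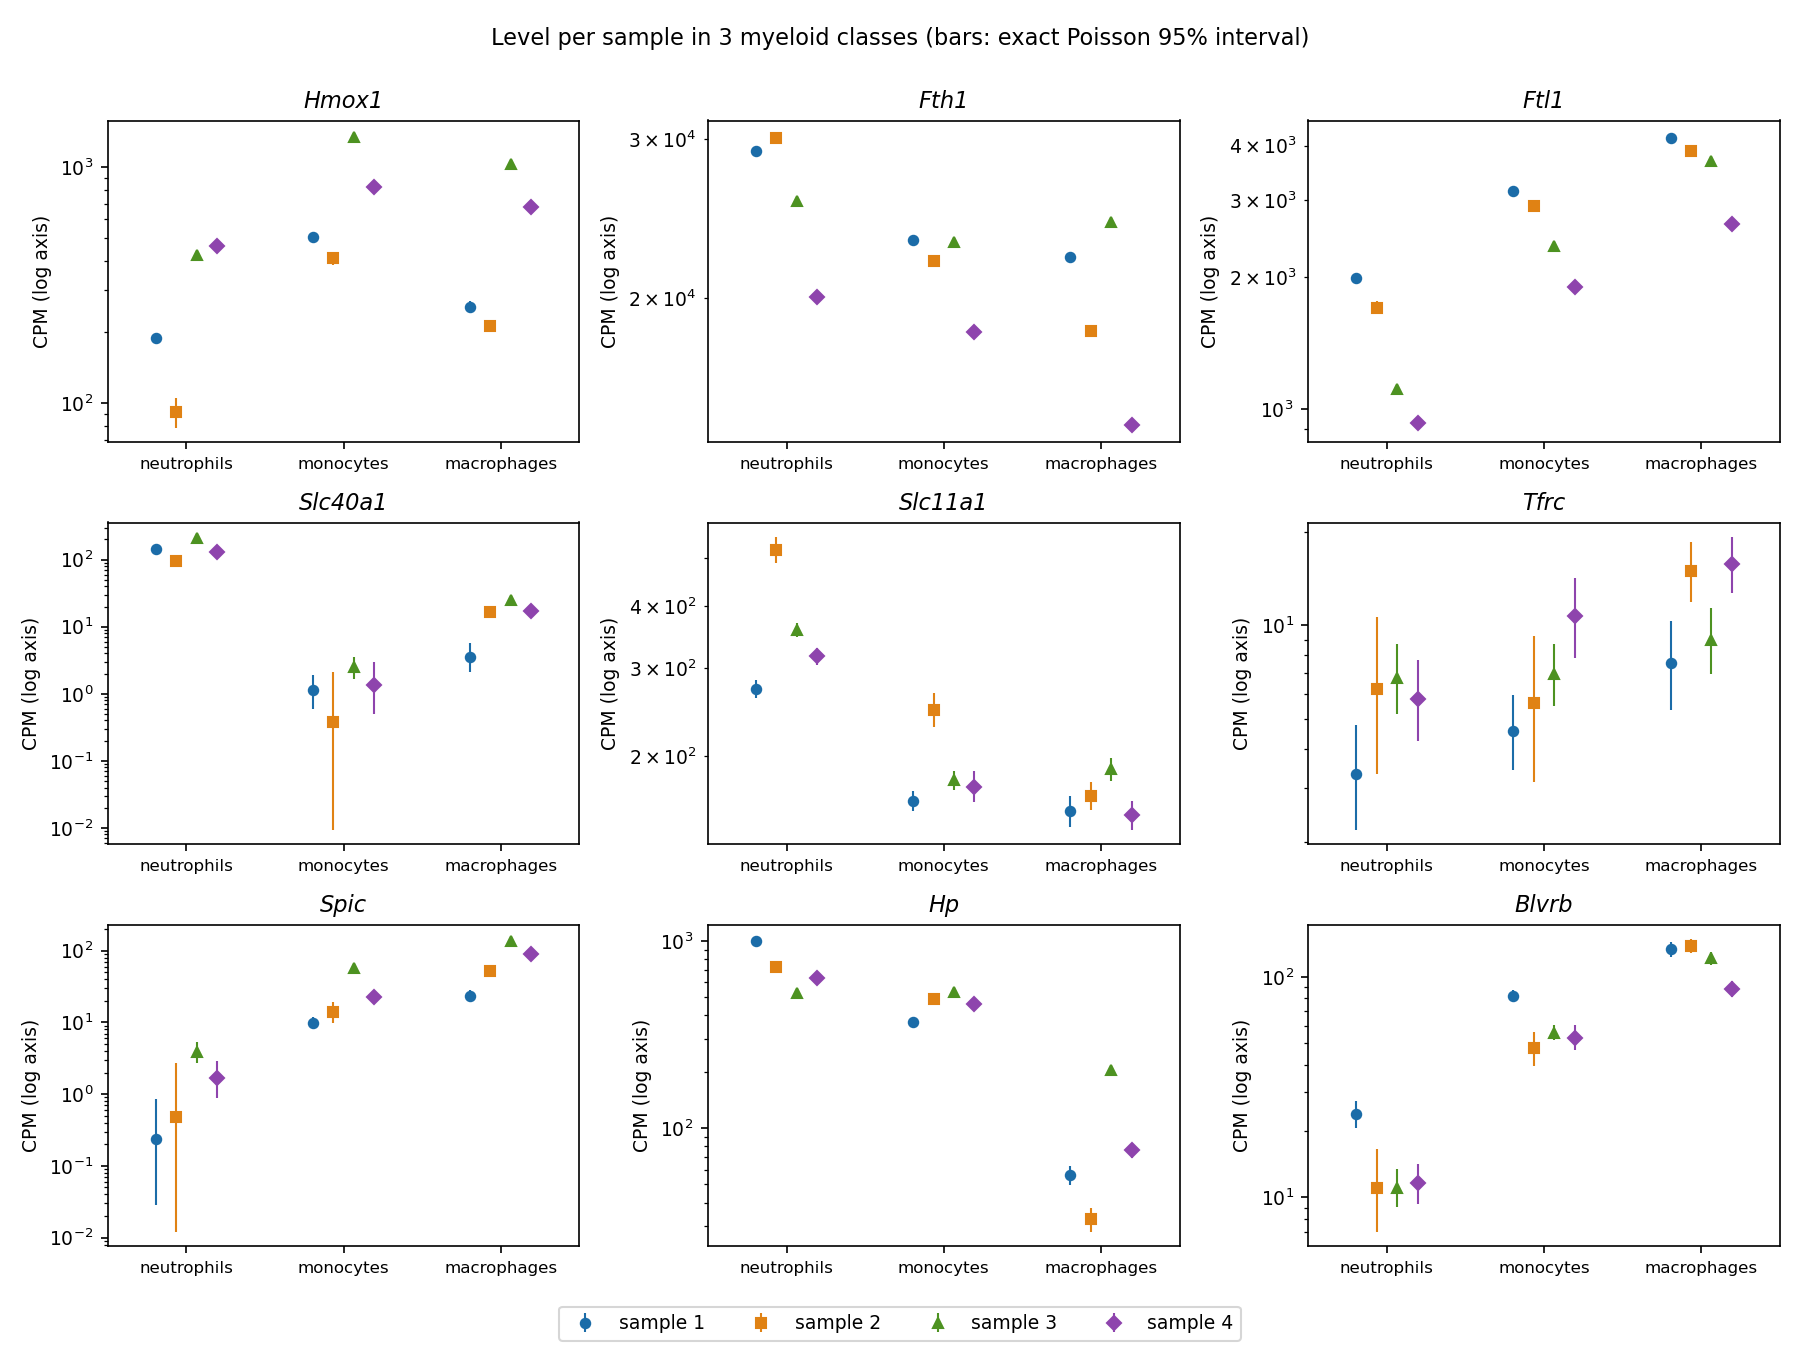
Level of each gene (CPM, log axis, a different range in each panel) in neutrophils, monocytes and macrophages of samples 1 to 4; points are samples and bars are exact Poisson 95% intervals. Among these classes, Fth1, Slc40a1 and Slc11a1 were highest in neutrophils, Hmox1 in monocytes, and Ftl1, Spic and Blvrb in macrophages, in all 4 samples.

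The ferritin genes accounted for a large share of all transcripts in myeloid cells, with Fth1 and Ftl1 together making up 2.10% to 3.18% of UMIs in neutrophils, 2.03% to 2.63% in monocytes and 1.71% to 2.80% in macrophages. In T cells the share was 0.180% to 0.260%. Fth1 (chr19:9980598-9985098, plus strand), the heavy chain that oxidizes iron as it enters the shell, was at 29107, 30066, 25634 and 20056 CPM in neutrophils of samples 1 to 4, at 23181, 21973, 23097 and 18347 CPM in monocytes and at 22233, 18395, 24293 and 14485 CPM in macrophages. These ranges overlap over the samples, but within each sample neutrophils exceeded both other classes beyond counting error, by under 2-fold. They exceeded monocytes by 1.26, 1.37, 1.11 and 1.09 times and macrophages by 1.31, 1.63, 1.06 and 1.38 times in samples 1 to 4. These ratios compare shares of a class's UMIs, and Fth1 UMIs per cell were not compared. Median depth was 6101, 3249, 3723 and 5380 UMIs in neutrophils of samples 1 to 4. It was 9559, 6591, 6980 and 6521 UMIs in monocytes and 8289, 6146, 7186 and 5722 UMIs in macrophages. Of the 10 classes neutrophils were highest in 2 of 4 samples, and undecided lineage cells stood above them in samples 3 and 4. Ftl1 (chr7:45457944-45459884, minus strand), the light chain that aids the mineral core, showed another order. Macrophages held 4169, 3895, 3689 and 2648 CPM and were highest in all 4 samples, monocytes held 3156, 2906, 2361 and 1904 CPM, and neutrophils held 1992, 1705, 1113 and 928 CPM. Ftl1 has a near-identical pseudogene, Ftl1-ps1, to which 5.28 to 16.5 CPM were assigned in these classes, so the split of reads between them is uncertain. The gene also overlaps the annotated Gm22133 on its own strand and Gm10252 on the other.

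The ratio of Fth1 to Ftl1 UMIs, in which depth cancels, separated the classes. Neutrophils had 14.6, 17.6, 23.0 and 21.6 Fth1 UMIs per Ftl1 UMI in samples 1 to 4. Monocytes had 7.35, 7.56, 9.78 and 9.64, and macrophages 5.33, 4.72, 6.59 and 5.47. The 3 classes did not overlap, and the order was the same in each sample. Dendritic cells had 2.25 to 3.38. Plasma cells, read in samples 2 and 3 only, had 0.725 (95% interval 0.695 to 0.757) and 0.922 (0.832 to 1.02), so that light chain UMIs outnumbered heavy chain UMIs in sample 2 and did not differ from them beyond counting error in sample 3. Mast cells and basophils, read in sample 2 only, had 0.897 (0.815 to 0.988). These intervals do not cover the uncertain split of Ftl1 reads with its pseudogene. The ratios are therefore meant for comparison between classes, and their distance from 1 describes UMIs only.

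**Figure D3:**
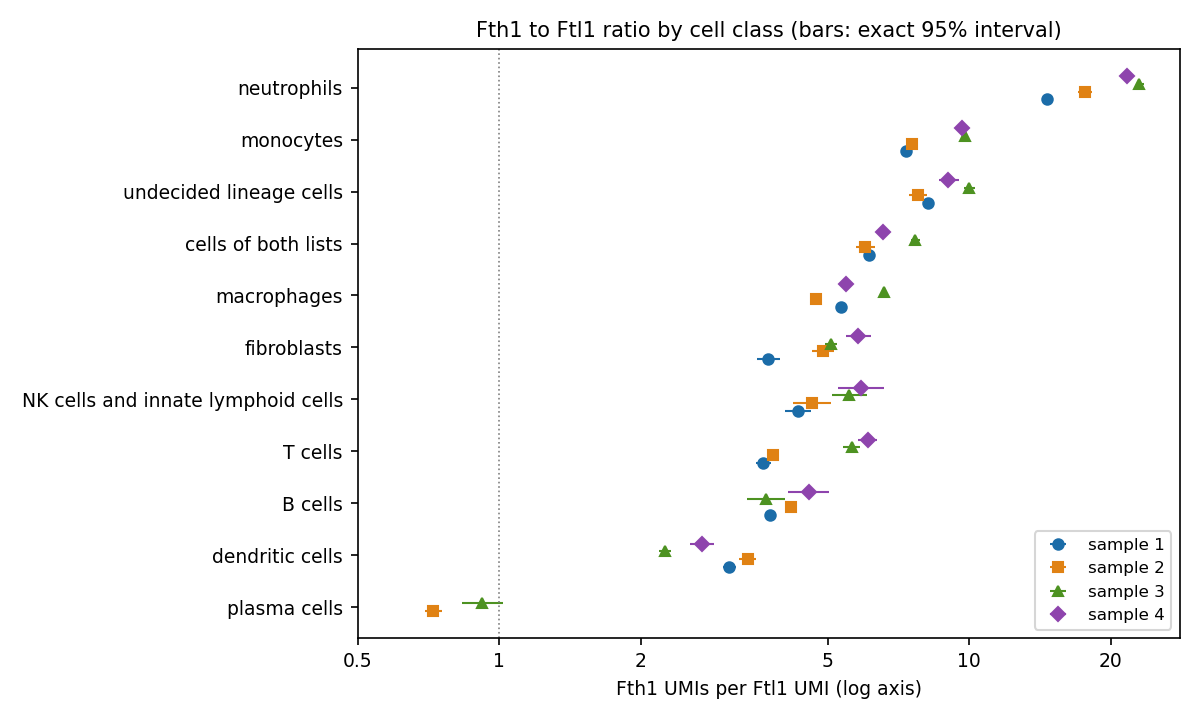
Fth1 UMIs per Ftl1 UMI (log axis) in the 10 cell classes read in all samples and in plasma cells; points are samples 1 to 4, bars are exact 95% intervals and the dotted line marks equal numbers. Neutrophils lay between 14.6 and 23.0 and plasma cells at 0.725 and 0.922.

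Slc40a1 (chr1:45908068-45926523, minus strand), the iron exporter best known from macrophages, hepatocytes and enterocytes, had its highest level of the 10 classes in neutrophils. It was at 142, 96.6, 207 and 131 CPM there, from 1200, 201, 1866 and 1016 UMIs. Macrophages held 3.58, 16.7, 25.3 and 17.1 CPM, and monocytes 1.12, 0.374, 2.47 and 1.37 CPM, beside 0 to 1.38 CPM in T cells, where the count of 0 in sample 1 allows up to 0.456 CPM. Every neutrophil value exceeded every macrophage value, and no other class of the 10 exceeded 27.3 CPM. Neutrophils exceeded macrophages by 39.7 times in sample 1 (95% interval 25.0 to 67.2) and by 5.78 to 8.18 times in the others. Against monocytes the ratio was 127 (73.7 to 238), 258 (45.8 to 10244, from 1 monocyte UMI), 83.8 (57.8 to 127) and 95.7 (43.8 to 261).

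The Slc40a1 signal was spread over neutrophils of both granule states. Cells with at least 3 granule transcripts had 139, 101, 194 and 130 CPM, and those with fewer had 153, 92.5, 232 and 140 CPM, while Ngp, 1 of the 7 granule genes, was at 3104, 2337, 3335 and 4762 CPM in the former and at 88.4, 147, 317 and 395 CPM in the latter. UMIs of Slc40a1 were found in 42.2%, 23.4%, 42.2% and 38.6% of neutrophils at full depth, with a median of 6101, 3249, 3723 and 5380 UMIs, and in 0 to 1.15% of T cells. After each cell was thinned to 1000 UMIs the shares were 11.9%, 8.19%, 16.4% and 11.0%, against 0.174% to 1.51% of macrophages and 0 to 0.384% of T cells. In sample 1 no T cell of 799 kept a UMI, which allows up to 0.375% of cells with a UMI at that depth and sets no limit on cells that express the gene. The ratio of macrophage to neutrophil CPM + 1 was 0.0320 to 0.182 for Slc40a1 and 0.00370 to 0.0172 for Lcn2, a neutrophil gene, and it was larger for Slc40a1 in every sample. With nothing added, the Slc40a1 ratio in sample 1 was 0.0252, from 18 macrophage UMIs. The part of neutrophil RNA in the macrophage values of Slc40a1 was not tested. Epithelial cells, read in samples 2 and 4 only, held 73.2 and 106 CPM.

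Slc11a1 (chr1:74375195-74386062, plus strand), the gene of the phagosomal metal pump, was likewise highest in neutrophils in all 4 samples, at 273, 519, 358 and 317 CPM. A transcript count does not show whether these mice make a working pump. Monocytes held 162, 248, 179 and 174 CPM and macrophages 155, 166, 188 and 152 CPM, which overlap. Every neutrophil value exceeded every value of both. Outside the myeloid classes no value exceeded 11.1 CPM. Slc11a1 was also the steadiest of the 9 genes in macrophages, with 1.24 times between the lowest and the highest sample.

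Tfrc (chr16:32608920-32632794, plus strand) was highest in lymphocytes among the 10 classes. B cells held 71.2, 66.8, 110 and 92.6 CPM, T cells 42.3, 35.4, 60.3 and 55.5 CPM and NK and innate lymphoid cells 34.9, 44.9, 55.4 and 51.0 CPM. Neutrophils held 3.31, 6.25, 6.77 and 5.80 CPM, monocytes 4.58, 5.61, 6.97 and 10.7 CPM and macrophages 7.55, 14.9, 8.97 and 15.8 CPM. Every B cell value exceeded every T cell value, and T cells and NK cells overlapped. Epithelial cells held 167 and 200 CPM in samples 2 and 4. Across the 46 class and sample points read the log2(CPM + 1) values of Tfrc and Fth1 had a Pearson correlation of -0.73. The points share libraries and depth, and the value is a description.

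Contrasts between classes were made within each sample on the ratio of CPM + 1, and a gene was called when it differed by at least 2-fold in the same direction in 4 of 4 samples, among genes with at least 20 UMIs over both classes in every sample. No p-value was computed, since cells are not replicates and samples without a labelled group were not treated as replicates. Between macrophages and monocytes, 2 of the 9 genes were called higher in macrophages (Slc40a1 and Spic), where 4.01% of the 9896 genes tested were called, and 1 was lower (Hp), where 1.70% were called. The ratios were 2.16, 12.9, 7.58 and 7.63 for Slc40a1, 2.22, 3.60, 2.37 and 3.88 for Spic, and 0.155, 0.0683, 0.388 and 0.166 for Hp. Both calls of higher genes depend on the 1 CPM added: with 5 CPM added, neither Slc40a1 nor Spic was called. Blvrb was 1.62 to 2.88 times as high in macrophages and passed 2-fold in 2 samples. The median log2 ratio of the 9 genes was 0.45, beside 0.18 for all genes tested. Fth1 was within 0.790 to 1.05 times and Slc11a1 within 0.673 to 1.05 times.

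Between macrophages and neutrophils, 3 genes were called higher in macrophages (Spic, Blvrb and Ftl1) and 2 lower (Slc40a1 and Hp). The background was 35.3% higher and 7.06% lower of 9794 genes, so the share of higher genes lay near that of all genes. The Ftl1 call was lost with a mean over cells and with totals that leave out immunoglobulin, hemoglobin, mitochondrial, S100a8 and S100a9 UMIs, and the Hp call was lost when mixed cells were placed in classes. Blvrb was 5.40 to 11.6 times as high in macrophages and Ftl1 2.09 to 3.31 times. Spic was 19.6, 36.1, 28.1 and 34.2 times as high on that scale. On CPM with nothing added, its ratio was 98.3 (95% interval 26.6 to 821) and 109 (19.4 to 4326) in samples 1 and 2, where neutrophils had 2 UMIs and 1 UMI, and 35.1 and 54.0 in samples 3 and 4. Hmox1 was 1.35 to 2.43 times as high in macrophages and Slc11a1 0.322 to 0.570 times, and neither was called. The median log2 ratio of the 9 genes was 0.87, beside 0.90 for all genes tested.

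Between monocytes and neutrophils, 2 genes were called higher in monocytes (Spic and Blvrb), with 26.7% of 8419 genes called, and Slc40a1 was called lower, with 6.64% called. The Blvrb call was lost when mixed cells were placed in classes. Hmox1 was 2.65, 4.45, 3.16 and 1.77 times as high in monocytes and missed the call through sample 4. The median log2 ratio of the 9 genes was 0.20, and that of all genes tested was 0.61. These 3 contrasts share classes and are not independent of each other.

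**Figure D4:**
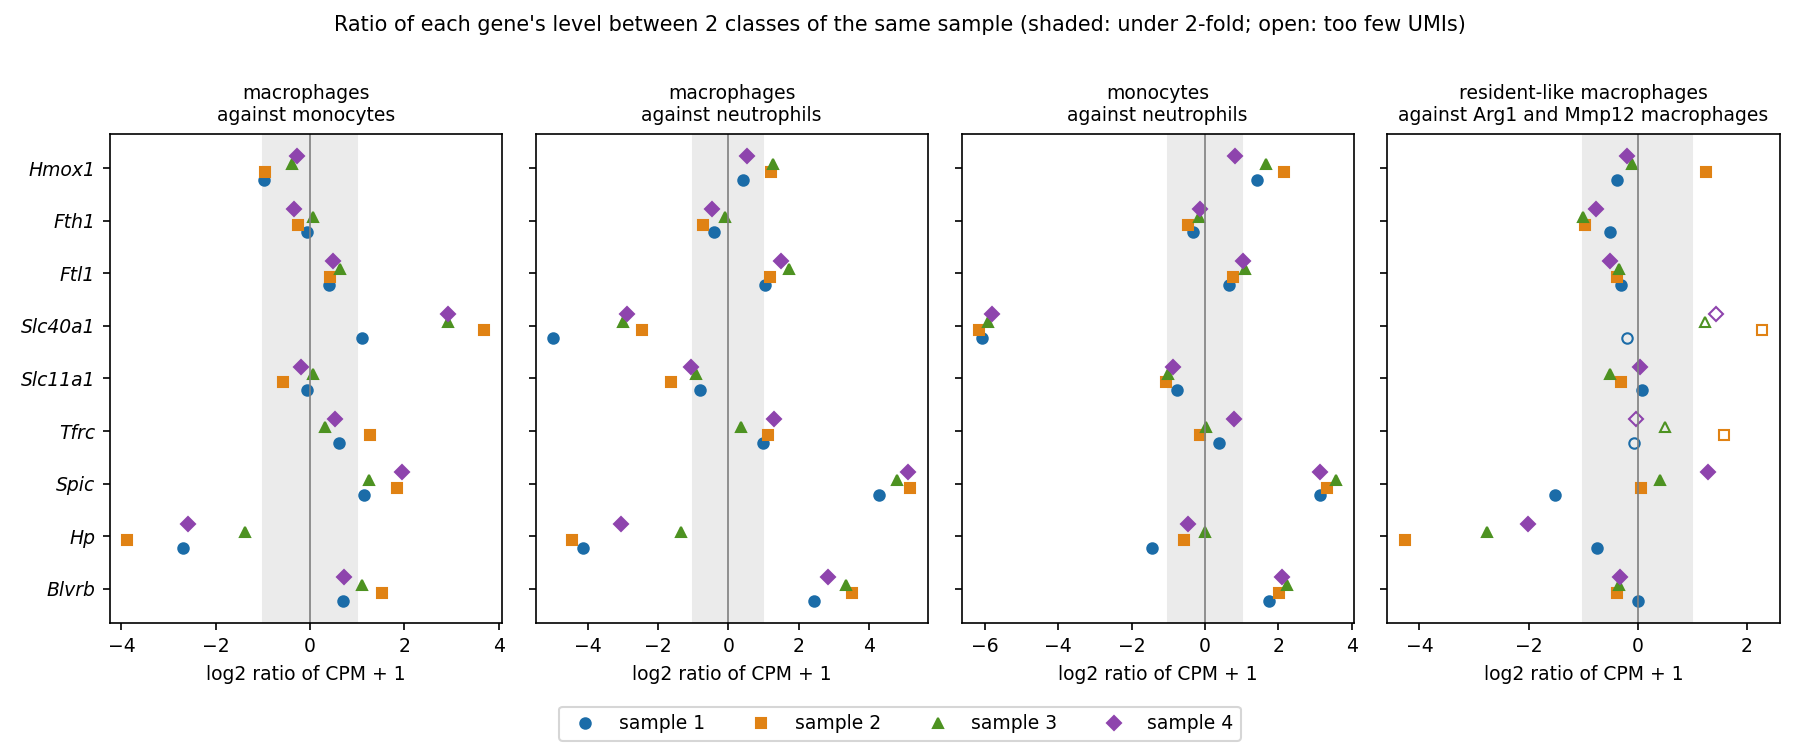
Log2 ratio of CPM + 1 between 2 classes of the same sample for each gene and for 4 contrasts; points are samples 1 to 4, the shaded band holds ratios under 2-fold, and open points mark genes with too few UMIs to be called. Slc40a1 was lower than in neutrophils in macrophages and in monocytes in all 4 samples.

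Among macrophages, cells were parted into a resident-like subset (66, 319, 161 and 254 cells), carrying markers such as Folr2, Stab1 and Lyve1, and a subset with Arg1, Mmp12 and Spp1 (95, 57, 218 and 135 cells), which is found in wounded tissue. Of the 9 genes, 7 had enough UMIs and none was called, with 0.671% of 6407 genes called higher and 0.312% lower in the resident-like subset. Hp came nearest. It was at 42.7, 9.22, 57.1 and 41.8 CPM in resident-like cells against 72.5, 194, 394 and 171 CPM in the other subset, lower in every sample and below 2-fold in sample 1 alone (1.70 times on CPM with nothing added, 95% interval 1.06 to 2.79). Without sample 1 Hp was called, and Slc40a1 was then called in the opposite direction, from few UMIs. In samples 2 to 4, resident-like cells had 32, 29 and 29 Slc40a1 UMIs and the other subset 1, 16 and 5. Fth1 was lower in resident-like cells in every sample, at 18282, 13353, 15804 and 11477 CPM against 25924, 26159, 31604 and 19527 CPM, and Ftl1 was lower by a smaller factor, with ratios of 0.701 to 0.810. The Fth1 to Ftl1 ratio was 3.77 to 4.84 in resident-like cells and 5.34 to 7.42 in the Arg1 and Mmp12 cells, with no overlap. The median log2 ratio of the 7 genes was -0.34, beside -0.01 for all genes tested. Spic had no common direction, with ratios of 0.350, 1.05, 1.33 and 2.45. Another gated subset, with Cxcl9 and Cxcl10, had enough cells to be read only in sample 1 (52 cells). Spic was at 60.2 CPM there (95% interval 40.3 to 86.4). In the same sample it was at 8.22 CPM in resident-like cells and 25.3 CPM in the Arg1 and Mmp12 cells.

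The hemoglobin receptor Cd163, which no gate used, did differ between these subsets. The study describes Cd163 in its resident-type macrophages together with Cx3cr1, Mrc1 and Tgfbr2, which are markers of the resident-like gate. The difference in Cd163 is therefore not independent of how the subsets were chosen. It was at 34.5, 119, 167 and 208.5 CPM in resident-like cells and at 0 (which allows up to 3.45 CPM), 6.70, 7.09 and 71.2 CPM in the Arg1 and Mmp12 cells. Sample 4 had the highest Cd163 level in the Arg1 and Mmp12 subset. Across all macrophages Cd163 was at 6.56, 61.0, 50.1 and 125 CPM, and it was at most 1.82 CPM in monocytes.

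Of 52 other genes of iron and heme pathways, 40 had enough UMIs to compare macrophages with monocytes, and 3 were higher and 3 lower, where 4.01% and 1.70% of all genes were. Cd163, the ferroxidase ceruloplasmin (Cp, smallest ratio over the samples 10.0) and transferrin (Trf, 2.17) were higher in macrophages. The siderophore-binding protein Lcn2 (smallest difference 5.44-fold), the metal importer Slc39a14 (2.12-fold) and the mitochondrial iron importer Slc25a37 (2.08-fold) were lower. No gene of heme synthesis (6 tested), the iron and heme sensors (6), ferritin handling (3) or the antioxidant list (6) was called. The median log2 ratio of the 40 genes was 0.30, beside 0.18 for all genes tested.

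Neutrophils and macrophages differed more broadly, with 19 of 41 pathway genes higher and 6 lower in macrophages, where 35.3% and 7.06% of all genes were. In heme uptake, Lrp1 (at least 16.4-fold in each sample), Cd163 (6.76-fold) and the lysosomal heme transporter Slc48a1 (3.08-fold) were higher in macrophages. Blvra, the other biliverdin reductase, was at least 9.78-fold higher. In heme synthesis Fech and Cpox were at least 3.73- and 3.03-fold higher, while Alas1, the first enzyme, was at least 2.14-fold lower. In iron uptake Slc11a2, Slc39a14, Trf and Slc39a8 were higher, by at least 18.7-, 6.95-, 3.48- and 2.84-fold. The metalloreductase Steap4 and Lcn2 were lower, by at least 47.7- and 58.2-fold.

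Further genes in the same contrast concern the use and sensing of iron. The ferritin iron chaperones Pcbp1 and Pcbp2 (at least 3.45- and 2.31-fold), Cp (9.18-fold), and the mitochondrial iron importer Slc25a28 (5.39-fold) were higher in macrophages. Of the sensors, Aco1, which encodes iron regulatory protein 1, was at least 5.53-fold higher in macrophages. Fbxl5, which targets iron regulatory proteins for degradation when iron is sufficient, was at least 4.66-fold lower. Fbxl5 stood at 1265, 893, 1314 and 1589 CPM in neutrophils, at 340, 323, 463 and 553 CPM in monocytes and at 121, 91.9, 281 and 257 CPM in macrophages, an order that held in every sample. Of the antioxidant genes commonly induced together with Hmox1, Prdx1 and Gclc were at least 12.5- and 2.22-fold higher in macrophages, and Nqo1 and the cystine importer Slc7a11 at least 3.32- and 2.22-fold lower. Lcn2 was at 5879, 4304, 3128 and 4916 CPM in neutrophils.

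Between monocytes and neutrophils, 11 of 35 tested pathway genes were higher in monocytes and 3 lower, near the 26.7% and 6.64% of all genes. Prdx1, Lrp1, Slc39a14 and Slc11a2 were higher by at least 10.9-, 10.4-, 19.5- and 11.4-fold. Steap4, Lcn2 and Fbxl5 were lower by at least 14.7-, 10.7- and 2.76-fold. Between the macrophage subsets, Cd163 was higher in resident-like cells in all 4 samples and Slc7a11 lower, by at least 2.90- and 2.24-fold, among 31 genes tested, where 0.671% and 0.312% of all genes were called.

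The 4 samples differed in Hmox1 more than in most genes, and samples 3 and 4 stood above samples 1 and 2 in all 10 classes. Its highest value over its lowest was 4.88 in macrophages, where the median over 8785 genes was 1.47 and 1.29% of genes had as large a ratio. In monocytes the ratio was 3.28, in neutrophils 5.08, in fibroblasts 6.82 and in T cells 5.13. In 9 of the 10 classes sample 3 had the highest Hmox1 level, in 1 class sample 4 had it, and the lowest was in sample 2 in 7 classes and in sample 1 in 3. The median depth of kept cells in samples 1 to 4 was 7084, 5633, 6109 and 5847 UMIs. The parts of depth, of free RNA in the T cell values, and of batch or genotype, which the labels do not name, were not tested.

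Spic was highest in sample 3 and lowest in sample 1 in macrophages and monocytes, with ratios of 5.86 and 5.73 between the highest and the lowest sample, which 0.808% and 0.710% of genes reached. Hp varied by 6.31 times in macrophages, highest in sample 3, and by 1.44 times in monocytes. The neutrophil gene Lcn2 in macrophages was at 28.8, 14.9, 52.75 and 49.7 CPM, also highest in sample 3, and the part of neutrophil RNA in the Hp values was not tested. Of the antioxidant genes in macrophages, Slc7a11 varied by 3.70 times, Gclm by 3.69, Gclc by 2.82, Prdx1 by 2.38, Srxn1 by 1.92 and Txnrd1 by 1.88. Ratios as large were reached by 2.54%, 2.56%, 4.87%, 8.67%, 19.1% and 20.7% of genes, respectively. Each of these genes was highest in sample 3 and lowest in sample 2, as Hmox1 was, although Srxn1 hardly differed between samples 3 and 4 (175.5 and 175.1 CPM). The share of all genes with that order of samples was not counted. Nqo1, the other gene of the antioxidant list, was at 4.97, 1.07, 1.61 and 1.81 CPM, highest in sample 1. The order was not shared by all classes: in neutrophils Gclm was highest in sample 1 (289, 133, 270.2 and 266.5 CPM) and Slc7a11 in sample 2 (2883, 4028, 3993 and 2956 CPM). Ftl1 and Blvrb ran otherwise: Ftl1 was lowest in sample 4 in all 10 classes and highest in sample 1 in 8 of them, and Blvrb was highest in sample 1 or 2 in all 10.

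**Figure D5:**
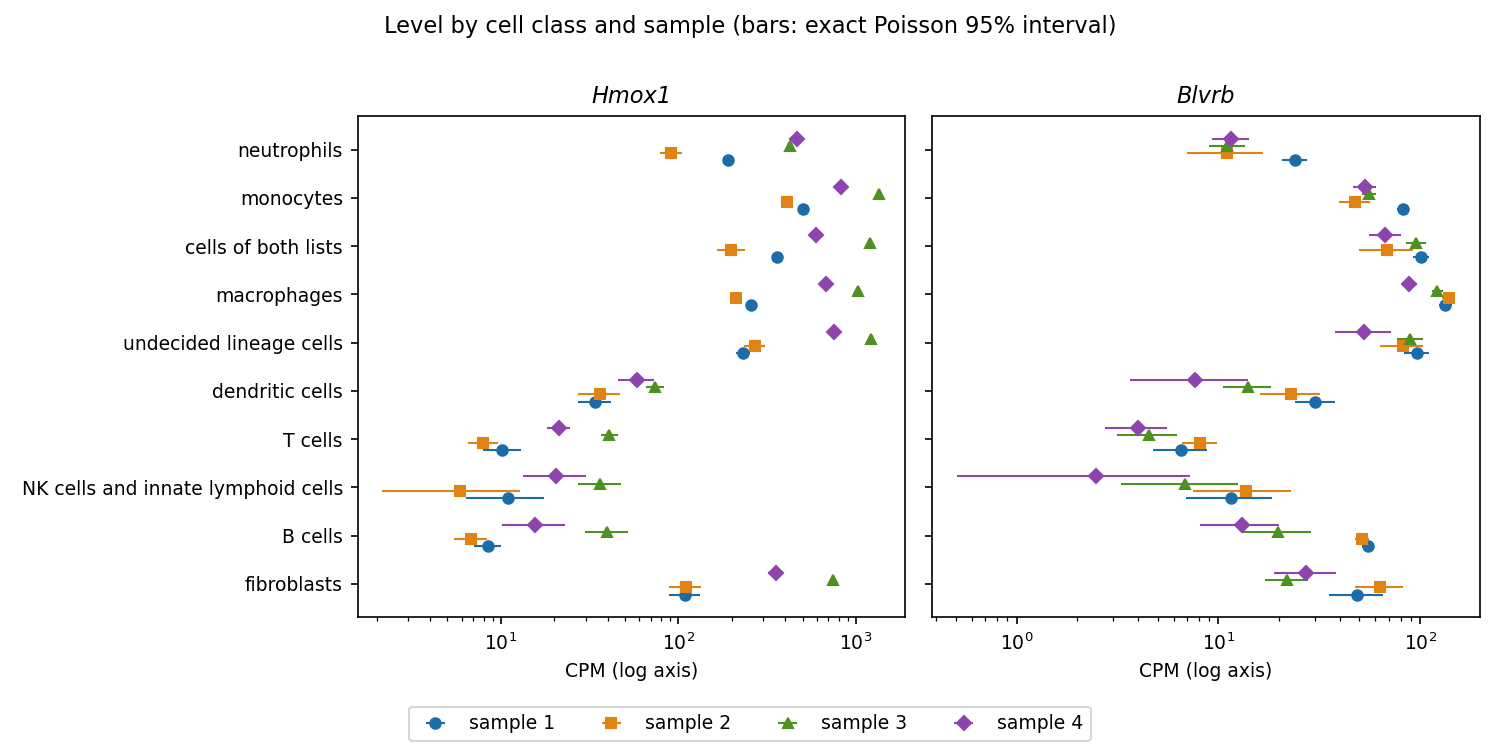
Level of Hmox1 and Blvrb (CPM, log axis) in the 10 cell classes read in all samples; points are samples 1 to 4 and bars are exact Poisson 95% intervals. Hmox1 was lowest in samples 1 and 2 in every class, and Blvrb was highest in sample 1 or 2 in every class.

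At the level of cells, thinning to 1000 UMIs left an Fth1 UMI in 98.8% to 100% of neutrophils, monocytes and macrophages and in 69.4% to 80.6% of T cells. Hmox1 was found in 31.1%, 23.4%, 55.5% and 43.0% of monocytes, in 22.6%, 16.7%, 52.4% and 36.2% of macrophages and in 0.746% to 3.45% of T cells. Hp was found in 54.6%, 48.1%, 38.6% and 40.9% of neutrophils, in 1.79% to 13.9% of macrophages and in 0.326% to 1.03% of T cells. Spic was found in 2.09%, 4.90%, 10.5% and 5.83% of macrophages, with 0 to 0.512% of T cells, where the count of 0 in sample 1 allows up to 0.375% of cells with a UMI at that depth. At full depth, Spic UMIs were found in 9.72%, 14.5%, 35.1% and 19.9% of macrophages, whose median depth was 8289, 6146, 7186 and 5722 UMIs, and in at most 1.40% of T cells, whose median depth was 6897, 5108, 7370 and 7242 UMIs. Tfrc was found in 5.95% to 9.96% of B cells after thinning and in 30.6%, 26.6%, 41.1% and 32.1% before, beside 0.539% to 1.79% of macrophages after thinning and 5.90% to 8.43% before. At most 13 macrophages of a sample were too shallow to be thinned.

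As a description of pattern, each gene was set against the 8059 genes that reached 50 CPM at any of the 46 class and sample points, by the Pearson correlation of log2(CPM + 1). The genes most like Slc40a1 were Lipg (0.889), Per2 (0.796) and the neutrophil surface gene Ly6g (0.773). Those most like Spic were the lectin receptor genes Clec4a1 (0.928) and Clec4a3 (0.912) and the complement receptor C3ar1 (0.911). Ftl1 stood with the proton pump subunits Atp6v0c (0.927) and Atp6v0b (0.880) and with Creg1 (0.913), and Blvrb with the lysosomal enzyme Hexa (0.900), Bri3 (0.846) and Apoe (0.845). Hp was most like Slc11a1 (0.946), Clec4e (0.945) and Arg2 (0.945), and Slc11a1 like Igsf6 (0.974), Cd14 (0.974) and Clec4d (0.971). Hmox1 was most like Fnip2 (0.931), Cstb (0.908) and App (0.907), Fth1 like Prdx5 (0.945), App (0.939) and Rab32 (0.937), and Tfrc like Patj (0.902), Vwa8 (0.878) and Hadhb (0.877). Ly6g and Cd14 are also gate markers. The points share libraries, so these values carry no test.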

How the data were processed

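Gene by cell matrices of UMI counts, deposited by the authors for 4 samples (10x droplets, mm10), were used as they stand. The file header names cellranger 7.0.1, and the submitters' processing notes name Cell Ranger 5.0.0. Cells needed at least 200 genes and at most 20% mitochondrial UMIs, and the highest doublet scores were removed at 0.8% per 1000 cells. Marker lists came first, and the number of markers needed was set at valleys of the marker counts after the data were seen. Named genes are the 9 genes, the listed pathway genes, and for each of the 9 the 3 genes most like it. The 9 genes and the lists were chosen with earlier results of these data known. UMIs were summed per class and sample, and 1 CPM was added for ratios. Totals and intervals bear on counting error only. The rule for calling a gene was tested on simulated class sums of macrophages and monocytes that held counting error only. The other steps were not tested in this way. Python 3.11.15, numpy 2.4.6, pandas 2.3.3, scipy 1.17.1 and scanpy 1.11.5 were used. Samples without a labelled genotype entered no group comparison. Some pathway genes that were counted are not reported here by name.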

Additional observations from a re-analysis of the deposited data

How the results depend on the processing

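Of 239 recomputed summary values, 212 stayed within 1.5 times the reported value or its spread and 27 moved. These values are counts and shares, which have no direction that could reverse. Without sample 1, the resident-like against Arg1 and Mmp12 contrast called 1 gene higher (Slc40a1) and 1 lower (Hp), where 0 and 0 were called with all samples. Leaving out each sample in turn gave 0 to 1 genes in either direction there and 3 to 5 pathway genes higher in macrophages than in monocytes. With each mixed cell placed in its best-scoring class, 1 gene was lower in macrophages and 1 higher in monocytes than in neutrophils, as Hp and Blvrb were no longer called. With 1 more marker in every gate, 6 pathway genes were higher in macrophages than in monocytes, and the macrophage subsets held too few cells. With a mean over cells, Hp was called lower in resident-like cells (1 gene) and Ftl1 was no longer called between macrophages and neutrophils. With totals that leave out immunoglobulin, hemoglobin, mitochondrial, S100a8 and S100a9 UMIs, 2 genes were lower in monocytes than in neutrophils, as Slc11a1 was added, and Ftl1 was again not called. At 1.5-fold, 4 genes were higher and 2 lower in monocytes than in neutrophils, 1 was lower in resident-like cells, and 7 pathway genes were higher and 6 lower in macrophages than in monocytes. At 4-fold, 0 genes were higher and 0 lower in macrophages than in monocytes, 1 was lower in macrophages than in neutrophils, 1 was higher in monocytes than in neutrophils, 1 pathway gene was lower in macrophages than in monocytes, and 9 were higher and 3 lower than in neutrophils. With 0.1 CPM added, 6 pathway genes were higher in macrophages than in monocytes, and with 5 CPM added 0 of the 9 genes were. With at least 100 UMIs, 1 of the 9 genes and 1 pathway gene were higher in macrophages than in monocytes, 1 of the 9 was higher in monocytes than in neutrophils, and 12 pathway genes were higher in macrophages than in neutrophils. The median share of macrophages with a UMI of the 9 genes was 9.75% thinned and 47.6% unthinned. The cause was not tested where it is not part of the setting. No paired analysis was possible because no result comes from a test and the labels number no replicates across groups; the class contrasts were made within each sample. Values of a few UMIs, such as Slc40a1 in monocytes, are limited by depth.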
